A study of Mus musculus with 16 samples.

Results

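The 4 Janus kinases Jak1, Jak2, Jak3 and Tyk2, the feedback inhibitors Socs1, Socs2, Socs3 and Cish, and Il10ra, the ligand-binding chain of the interleukin-10 receptor, were followed by RNA sequencing in mouse bone marrow-derived macrophages. These 9 genes were chosen by symbol, not by their values, out of 54838 gene identifiers in the counts, and 8 of them had enough reads to be tested; Socs2 did not. Macrophages were grown from bone marrow of mice labelled with genotype B6.129P2-Apoetm1Unc/J and strain C57BL/6J, a line that lacks a functional apolipoprotein E gene, so all groups share that deletion. The first group received TMP195, an inhibitor of class IIa histone deacetylases, at 5 µM for 1 h and then TNFα at 50 ng/ml for 24 h (TMP195+TNFα). The second received TPCA-1, an inhibitor of the IκB kinase IKK2, at 500 nM for 1 h and then the same TNFα (TPCA-1+TNFα). The third received TNFα alone, and the fourth DMSO, the solvent, without TNFα. Each group held 4 libraries, numbered as replicates 1 to 4. Nothing in the labels tells if the 4 replicates were 4 animals or 4 dishes of 1 animal, or if cells given TNFα alone also had DMSO; p-values therefore reflect library-to-library spread, which may be technical. Macrophages were differentiated in medium conditioned by L929 cells, and stimulated without serum after a day without that medium.

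Cytokine receptors without their own enzymatic activity hold Janus kinases on their cytoplasmic tails. When a ligand draws the chains together, the kinases phosphorylate each other, the receptor and the STAT transcription factors, which then move to the nucleus and switch on genes that include those of the SOCS proteins. SOCS1 and SOCS3 bind the kinases or the receptor and block the kinase, and SOCS proteins and CIS, the product of Cish, bring a ubiquitin ligase to their targets, so the pathway is shut off by its own products. In macrophages, interleukin-10 acts through IL10RA with JAK1 and TYK2 to activate STAT3, interferons act through JAK1 with JAK2 or TYK2, and GM-CSF acts through JAK2 and STAT5.

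The genes lie on 7 autosomes of the GRCm38 assembly, in GENCODE M21 coordinates: Jak1 at chr4:101152367-101265282 on the minus strand, Jak2 at chr19:29251828-29313080 on the plus strand, Jak3 at chr8:71676296-71690575 on the plus strand and Tyk2 at chr9:21104068-21131243 on the minus strand. Socs1 lies at chr16:10782240-10785536, Socs2 at chr10:95385362-95417180 and Socs3 at chr11:117966079-117970047, all on the minus strand, Cish at chr9:107296026-107302784 on the plus strand and Il10ra at chr9:45253837-45269149 on the minus strand. Exons of Jak3 overlap those of Insl3 on the same strand, and Insl3 collected 7 reads in all libraries together. Raver2 overlaps Jak1 on the opposite strand, and antisense reads came to at most 1.05% of the total at any of the 9 genes.

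Promoter windows of 300 bases, 250 before and 50 after the start of the RefSeq transcript (assembly GRCm38.p6), were given for 7 of the 9 genes, not for Socs2 and Il10ra. They were searched on both strands for the gamma-activated sequence TTCNNNGAA, which STAT dimers bind, for the core of the interferon-stimulated response element (GAAA, any 2 bases, GAAA), and for the kappaB consensus. The windows of 3 feedback inhibitors held a match and are shown because SOCS genes are targets of the pathway they inhibit; matches are in capitals. Each is written 5′ to 3′ along the gene's strand, for Socs3 chr11:117969317-117969616 (minus), for Socs1 chr16:10785487-10785786 (minus) and for Cish chr9:107296409-107296708 (plus).
Socs3: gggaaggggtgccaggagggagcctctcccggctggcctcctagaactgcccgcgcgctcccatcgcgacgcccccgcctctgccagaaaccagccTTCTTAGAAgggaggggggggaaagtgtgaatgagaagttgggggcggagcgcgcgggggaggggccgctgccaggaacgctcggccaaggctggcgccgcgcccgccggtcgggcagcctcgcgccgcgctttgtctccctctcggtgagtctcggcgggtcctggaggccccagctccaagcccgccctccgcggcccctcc
Socs1: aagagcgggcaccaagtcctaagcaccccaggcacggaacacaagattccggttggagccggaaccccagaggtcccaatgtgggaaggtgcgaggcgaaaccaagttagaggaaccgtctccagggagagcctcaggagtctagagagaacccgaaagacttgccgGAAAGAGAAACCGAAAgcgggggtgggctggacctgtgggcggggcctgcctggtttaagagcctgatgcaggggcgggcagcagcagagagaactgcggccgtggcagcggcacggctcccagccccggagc
Cish: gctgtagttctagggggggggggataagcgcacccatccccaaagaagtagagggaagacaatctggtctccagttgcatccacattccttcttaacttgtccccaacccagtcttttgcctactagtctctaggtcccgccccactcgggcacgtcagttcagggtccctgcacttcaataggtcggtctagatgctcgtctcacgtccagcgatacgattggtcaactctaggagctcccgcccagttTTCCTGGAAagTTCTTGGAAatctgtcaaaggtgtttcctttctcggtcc
The Socs3 window holds 1 gamma-activated sequence, 154 bases before the RefSeq start. The Socs1 window holds 2 overlapping response element cores, 83 and 77 bases before the start. The Cish window holds 2 gamma-activated sequences in the 50 bases that follow the start. The Socs3 and Cish windows lie wholly inside the GENCODE gene spans given above, so their RefSeq starts are not the outer ends of those spans. Among all 32851 windows of this length, 8.30% held a gamma-activated sequence, 3.44% a response element core and 8.46% a kappaB match; no window of the 7 genes held the kappaB letters. A match describes letters and shows no binding.

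The libraries held 7489066 to 31596572 reads counted on genes. TPCA-1+TNFα replicate 2 stood apart as the shallowest, and 44.0% of its reads did not map, where the share was 4.003% to 7.11% for the other 15; calls in the TPCA-1+TNFα group are therefore given with and without it. Apoe had 1 to 11 reads per library. The 10 macrophage markers checked, among them Adgre1, Csf1r and Lyz2, were all above 1 CPM (counts scaled to library size) in each group. Their summed level was 12610 to 18037 CPM in TMP195+TNFα, 12987 to 21235 in TPCA-1+TNFα, 17860 to 26050 in TNFα and 16490 to 25565 in DMSO. Of 9 T, B and NK cell markers, 7 were under 1 CPM in every group and Cd3e had 5 reads over the 16 libraries. Of 9 neutrophil markers, 7 were under 1 CPM and Ly6g had 0 reads. Levels are from bulk RNA, where fewer cells of a type and less RNA per cell cannot be told apart.

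Scaled by exon length, Jak1 was the most abundant of the 9 genes, with a mean of 32.2 CPM per kb over the 16 libraries, followed by Il10ra at 23.3, Jak2 at 12.1, Tyk2 at 7.38, Socs3 at 5.14, Jak3 at 2.14, Socs1 at 1.06, Cish at 0.0869 and Socs2 at 0.00804 CPM per kb. Socs3 held rank 5 in TMP195+TNFα (6.03 ± 1.41 CPM per kb, SD, n = 4), rank 6 in TPCA-1+TNFα (1.68 ± 1.27), rank 4 in TNFα (11.4 ± 3.60) and rank 6 in DMSO (1.49 ± 0.54). Il10ra and Jak1 changed places in TPCA-1+TNFα, at 31.5 ± 8.43 against 29.8 ± 1.21 CPM per kb, with overlapping libraries; without TPCA-1+TNFα replicate 2 they kept their places, at 28.04 ± 5.93 for Il10ra and 29.6 ± 1.45 for Jak1 (n = 3). Socs3 then ranked 5 in TPCA-1+TNFα, at 1.91 ± 1.45 CPM per kb, ahead of Jak3 at 1.75 ± 0.42, and Jak2 and Tyk2 no longer overlapped there. Il10ra and Jak1 overlapped in DMSO too, with Jak1 ahead. Neighbours in the order also overlapped between Jak2 and Tyk2 in TPCA-1+TNFα, between Il10ra and Jak2 in TMP195+TNFα and TNFα, and between Socs1 and Jak3 in TMP195+TNFα and TNFα. Socs3 overlapped Tyk2 in TMP195+TNFα, Jak3 and Socs1 in TPCA-1+TNFα, Jak2 and Tyk2 in TNFα, and Jak3 in DMSO. Cish and Socs2 lay below the other 7 genes in every group, with no overlap.

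**Figure D1:**
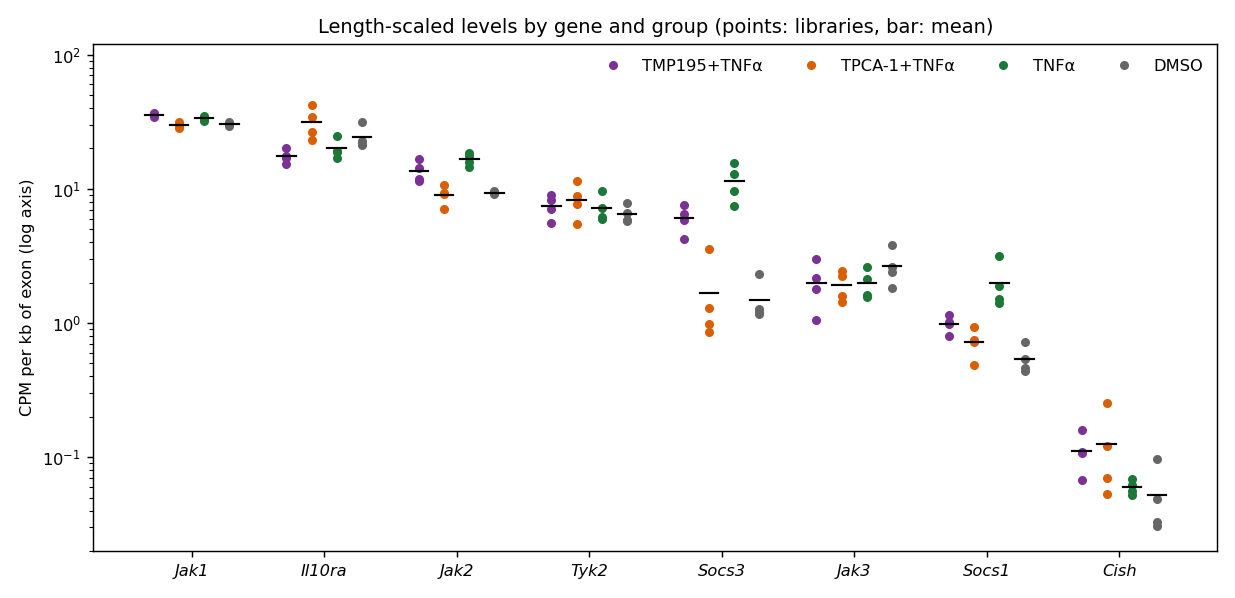
Length-scaled level (CPM per kb of exon, log axis) of 8 genes in the 16 libraries; points are libraries, bars are means of 4, and colours are the groups. Jak1 spans 28.4 to 36.7 CPM per kb over all libraries, while Socs3 spans 0.858 to 15.6; Socs2, with 0 reads in 5 libraries, is not drawn.

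Socs3, Socs1 and Jak2 were each called in 4 of the 6 comparisons, Il10ra and Jak1 in 2, and the other tested genes in none. With TNFα, these 3 of the 8 tested genes rose and none fell, against 10.9% of all 12612 tested genes that rose and 12.4% that fell, 23.4% in all (edgeR quasi-likelihood test, adjusted p under 0.05, the call rule used throughout). With TMP195 before TNFα, 1 gene, Socs1, fell against TNFα alone and none rose, against 3% of all genes that fell and 2.95% that rose, 5.95% in all. With TPCA-1 before TNFα, Socs3, Socs1 and Jak2 fell and Il10ra rose, against 9.72% of all genes that fell and 9.67% that rose. Between the inhibitors, Jak1, Jak2 and Socs3 were higher and Il10ra was lower in TMP195+TNFα than in TPCA-1+TNFα, against 13.1% of all genes that were higher and 12.6% that were lower. Against DMSO, 4 genes were higher and none lower in TMP195+TNFα, where 13.6% of all genes were higher and 13.9% lower. No gene passed in TPCA-1+TNFα against DMSO, where 30.3% of all genes did; 2 of the 8 had an unadjusted p under 0.05, DESeq2 called 0 and limma 1. Over the 8 tested genes the median log2 fold change was 0.17 for TNFα against DMSO, -0.089 for TMP195+TNFα against TNFα and -0.11 for TPCA-1+TNFα against TNFα, beside 0.0018, 0.015 and 0.022 over all tested genes. The first 3 comparisons share the TNFα libraries, so their changes are not independent of each other.

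**Figure D2:**
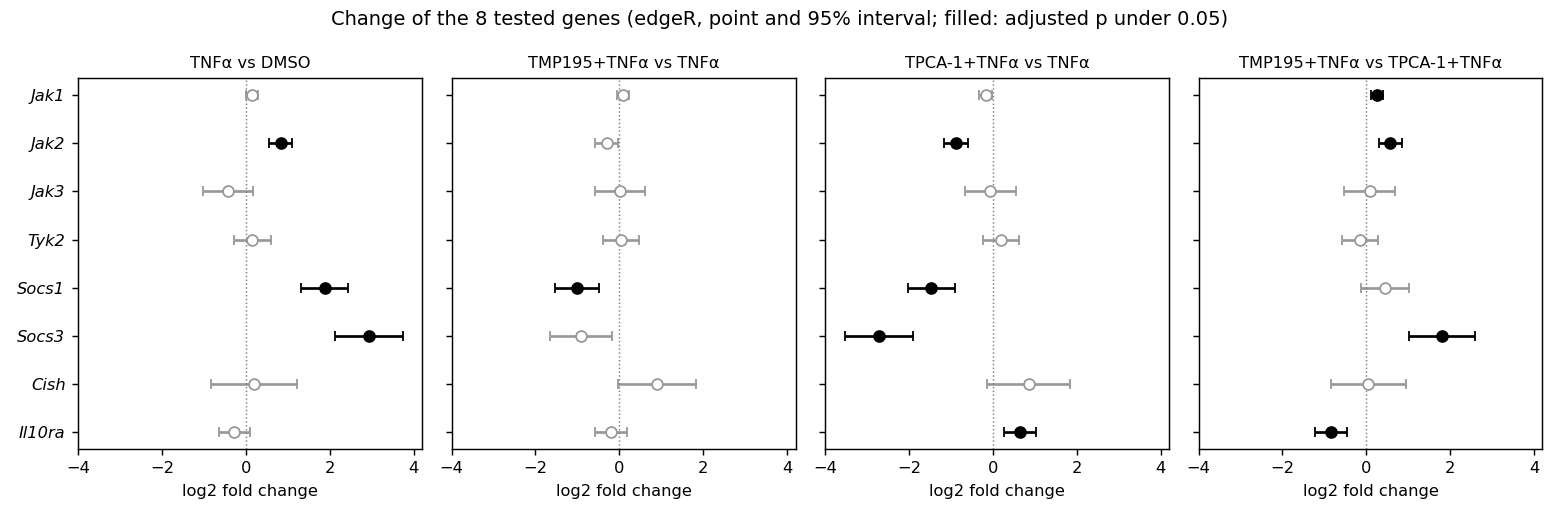
Log2 fold change (point) with its 95% interval (bar) of the 8 tested genes in 4 comparisons, from edgeR; filled points have an adjusted p under 0.05. Socs3 moves by 2.93 with TNFα against DMSO and by -2.71 with TPCA-1+TNFα against TNFα, and the intervals of Jak3, Tyk2 and Cish include 0 in all 4 panels.

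Among the kinases, Jak2, which serves the receptors of interferon gamma, GM-CSF and the gp130 cytokines, moved most. In replicates 1 to 4, an order kept for all such values below, Jak2 was at 83.2, 57.5, 71.3 and 59.1 CPM in TMP195+TNFα, 53.4, 35.5, 46.9 and 45.6 in TPCA-1+TNFα, 92.9, 79.2, 89.0 and 73.5 in TNFα, and 47.6, 46.0, 48.4 and 46.4 in DMSO. All TNFα libraries lay above all DMSO and all TPCA-1+TNFα libraries, and the TMP195+TNFα libraries lay above DMSO and overlapped TNFα. Jak2 averaged 83.6 ± 8.89 CPM in TNFα and 47.1 ± 1.10 in DMSO (SD, n = 4 each), a log2 fold change of 0.83 ± 0.13 (SE; adjusted p = 0.000148). It was lower in TPCA-1+TNFα than in TNFα by -0.88 ± 0.13 on the log2 scale (adjusted p = 0.000163), and by -0.79 (adjusted p = 0.000417) without TPCA-1+TNFα replicate 2. Against DMSO the difference in TPCA-1+TNFα was -0.05 ± 0.13, with a 95% interval of -0.33 to 0.23.

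For TMP195+TNFα against TNFα alone, the Jak2 difference was -0.30 ± 0.13 and missed the threshold (adjusted p = 0.210). Libraries of equal number deviated together in this comparison. With that number fitted as a block, a pairing taken from these same data, Jak2 fell by -0.31 ± 0.09 (adjusted p = 0.0351). Jak2 was lower in TMP195+TNFα in all 4 pairs of equal number, at 0.726 to 0.896 of the TNFα level. It was higher than in DMSO, by 0.52 ± 0.13 (adjusted p = 0.00612), and higher than in TPCA-1+TNFα, by 0.57 ± 0.13 (adjusted p = 0.00406; 0.48 and adjusted p = 0.0112 without TPCA-1+TNFα replicate 2).

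Jak1, the kinase shared by interferon, gp130, interleukin-10 and common gamma chain receptors, differed by at most 0.26 on the log2 scale in any comparison. Its libraries stood at 258, 257, 265 and 249 CPM in TMP195+TNFα, 211, 217, 206 and 226 in TPCA-1+TNFα, 250.1, 246, 239 and 231 in TNFα, and 228, 218, 211 and 217 in DMSO. The TMP195+TNFα libraries all lay above those of TPCA-1+TNFα and DMSO, and the TNFα libraries lay above both as well. Jak1 was higher in TMP195+TNFα than in TPCA-1+TNFα by 0.26 ± 0.07 on the log2 scale (adjusted p = 0.0135), and without TPCA-1+TNFα replicate 2 by 0.26 (adjusted p = 0.0140); the call was lost with no filter on low counts (adjusted p = 0.103) and when the fit held those 2 groups alone (adjusted p = 0.0901). Against DMSO, Jak1 was higher in TMP195+TNFα by 0.24 ± 0.07 (adjusted p = 0.0200). That call was lost without DMSO replicate 3, DMSO replicate 4 or TMP195+TNFα replicate 3 (adjusted p = 0.0644, 0.0502 and 0.0661) and with no filter (adjusted p = 0.218). The difference of TNFα from DMSO, 0.15 ± 0.07, did not pass (adjusted p = 0.166), while DESeq2 gave it an adjusted p of 0.0267.

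Jak3, which pairs with the common gamma chain and is mostly a kinase of lymphoid cells, and Tyk2, a partner of JAK1 at the type I interferon and interleukin-10 receptors, passed in none of the 6 comparisons. Jak3 had 96 to 390 reads per library and averaged 10.7 ± 4.28 CPM in TMP195+TNFα, 10.3 ± 2.58 in TPCA-1+TNFα, 10.6 ± 2.61 in TNFα and 14.2 ± 4.41 in DMSO. Each TNFα library was below the DMSO library of its number, at 0.620 to 0.878 of it, but the groups overlapped and the log2 difference was -0.43 ± 0.28 (adjusted p = 0.318; 95% interval -1.02 to 0.16). Tyk2 averaged 51.1 ± 10.3 CPM in TMP195+TNFα, 57.1 ± 17.0 in TPCA-1+TNFα, 49.7 ± 11.6 in TNFα and 44.7 ± 6.69 in DMSO. Its 95% intervals allow log2 differences of -0.28 to 0.59 for TNFα against DMSO, -0.40 to 0.47 for TMP195+TNFα against TNFα and -0.24 to 0.63 for TPCA-1+TNFα against TNFα, where the difference of 0.19 was 0.0025 without TPCA-1+TNFα replicate 2.

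**Figure D3:**
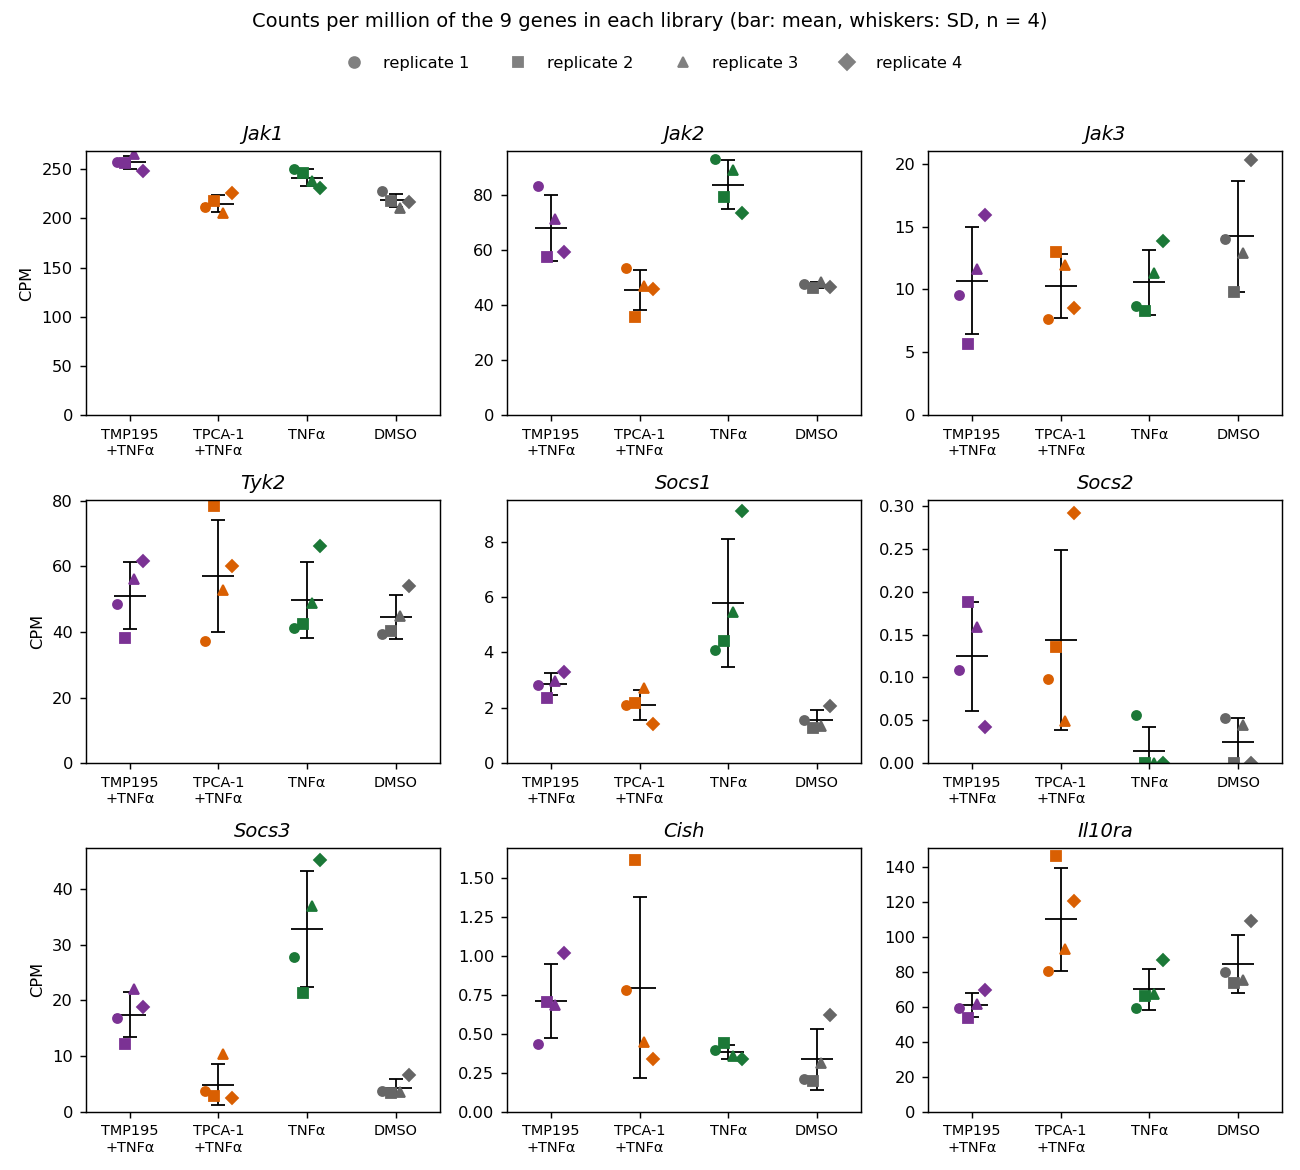
Level (CPM, axes from 0) of each gene in the 16 libraries; marker shapes are replicate numbers, the long bar is the mean and the whiskers are the SD of 4 libraries. Socs3, Socs1 and Jak2 are high in TNFα, Il10ra is highest in TPCA-1+TNFα, and Socs2 never passes 0.292 CPM.

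Socs3, the inhibitor of gp130 and G-CSF receptor signalling, changed most of the 8 tested genes. Its libraries were at 16.9, 12.2, 21.9 and 18.7 CPM in TMP195+TNFα, 3.76, 2.84, 10.3 and 2.48 in TPCA-1+TNFα, 27.8, 21.3, 37.0 and 45.1 in TNFα, and 3.68, 3.40, 3.49 and 6.66 in DMSO. TNFα and DMSO did not overlap, nor did TNFα and TPCA-1+TNFα, while the highest TMP195+TNFα library passed the lowest TNFα library. Socs3 averaged 32.8 ± 10.4 CPM in TNFα and 4.31 ± 1.57 in DMSO, 7.64-fold higher (log2 2.93 ± 0.38 SE; adjusted p = 1.92e-05). In TPCA-1+TNFα it averaged 4.85 ± 3.68 CPM and was lower than in TNFα by -2.71 ± 0.38 (adjusted p = 7.63e-05), and by -2.58 (adjusted p = 0.000408) without TPCA-1+TNFα replicate 2. The difference of TPCA-1+TNFα from DMSO was 0.22 ± 0.39 (95% interval -0.61 to 1.04), and -0.50 without TPCA-1+TNFα replicate 3, the library at 10.3 CPM.

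In TMP195+TNFα, Socs3 averaged 17.4 ± 4.08 CPM, and the log2 difference from TNFα alone was -0.91 ± 0.35 (adjusted p = 0.142). Blocked on replicate number, it fell by -0.90 ± 0.26 (adjusted p = 0.0283), and each TMP195+TNFα library had 0.415 to 0.607 of the TNFα library of its number. A call was also made by limma (adjusted p = 0.0378), with no filter on low counts (0.0439) and with only those 2 groups in the fit (0.0414). DESeq2 did not call Socs3 here. With single libraries left out, 0 to 1 of the tested genes were called in this comparison. Socs3 was higher in TMP195+TNFα than in TPCA-1+TNFα, by 1.80 ± 0.38 (adjusted p = 0.00194; 1.66 and adjusted p = 0.00699 without TPCA-1+TNFα replicate 2), and higher than in DMSO, by 2.02 ± 0.38 (adjusted p = 0.000541).

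Socs1, the inhibitor of interferon receptor signalling that blocks the kinases directly, was scarcer, with 16 to 189 reads per library. It stood at 2.84, 2.34, 2.96 and 3.31 CPM in TMP195+TNFα, 2.10, 2.16, 2.72 and 1.41 in TPCA-1+TNFα, 4.09, 4.42, 5.46 and 9.12 in TNFα, and 1.58, 1.28, 1.34 and 2.08 in DMSO. All TNFα libraries lay above all libraries of the other 3 groups. Socs1 was 3.68-fold higher in TNFα than in DMSO (log2 1.88 ± 0.27 SE; adjusted p = 4.69e-05). It was lower in TPCA-1+TNFα than in TNFα, by -1.46 ± 0.27 (adjusted p = 0.000872; -1.48 and adjusted p = 0.00235 without TPCA-1+TNFα replicate 2).

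TMP195+TNFα had less Socs1 than TNFα alone, by -1.01 ± 0.25 on the log2 scale (adjusted p = 0.0244), and by -0.98 ± 0.22 (adjusted p = 0.0076) when blocked on replicate number. The call was lost without TMP195+TNFα replicate 1, 2 or 3 (adjusted p = 0.0577, 0.0825 and 0.0602) and without TNFα replicate 4, the highest library, where the difference was -0.71 (adjusted p = 0.0959). Against DMSO, Socs1 was higher in TMP195+TNFα by 0.87 ± 0.27 (adjusted p = 0.0241). That call was lost without DMSO replicate 1, 2 or 3 (adjusted p = 0.0519, 0.0669 and 0.0714) and without TMP195+TNFα replicate 3 or 4 (0.0510 and 0.0645). The 2 inhibitor groups differed by 0.45 ± 0.27 with overlapping libraries (adjusted p = 0.237; 95% interval -0.12 to 1.03), and TPCA-1+TNFα differed from DMSO by 0.42 ± 0.29 (adjusted p = 0.284; 95% interval -0.18 to 1.02).

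**Figure D4:**
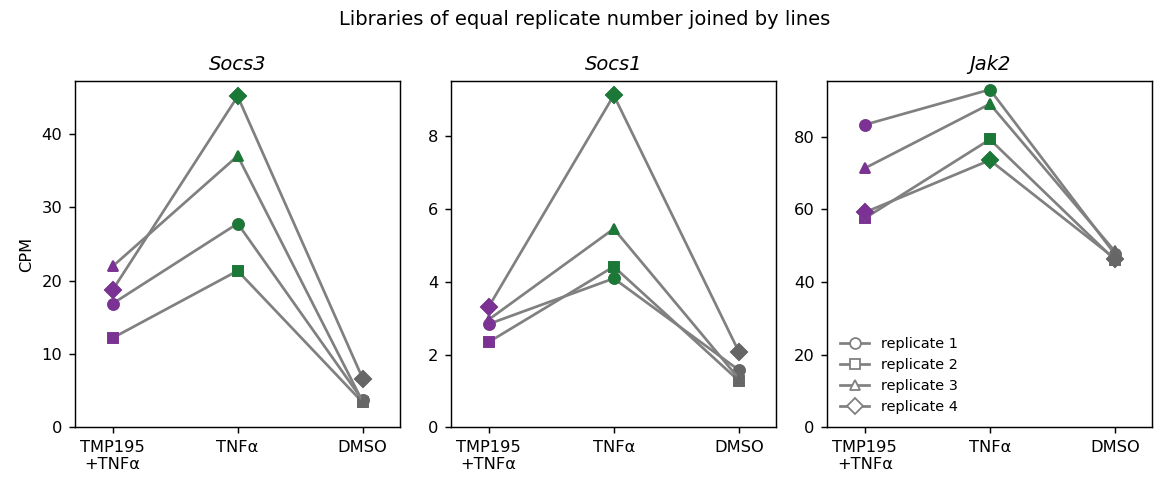
Level (CPM, axes from 0) of Socs3, Socs1 and Jak2 in the TMP195+TNFα, TNFα and DMSO libraries, with lines that join libraries of equal replicate number. Every line peaks in TNFα; Socs3 in TMP195+TNFα stands at 0.415 to 0.607 of the TNFα library of its number, Socs1 at 0.363 to 0.694 and Jak2 at 0.726 to 0.896.

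Cish, a STAT5 target whose product inhibits STAT5-activating receptors, was near the limit of detection, at 4 to 24 reads per library. Its levels were 0.437, 0.703, 0.688 and 1.02 CPM in TMP195+TNFα, 0.782, 1.62, 0.446 and 0.340 in TPCA-1+TNFα, 0.398, 0.442, 0.361 and 0.338 in TNFα, and 0.210, 0.197, 0.313 and 0.624 in DMSO. The TMP195+TNFα library exceeded the TNFα library of its number in all 4 pairs, 1.10- to 3.02-fold, yet the difference of 0.90 ± 0.44 did not pass (adjusted p = 0.292). The largest difference, 1.09 ± 0.46 for TMP195+TNFα against DMSO, did not pass either (adjusted p = 0.0888); without DMSO replicate 4 it was 1.54 (adjusted p = 0.0304), and TPCA-1+TNFα against DMSO was then 1.49 (adjusted p = 0.0347). Limma called the first of these (adjusted p = 0.00535). TPCA-1+TNFα differed from TNFα by 0.85 and from DMSO by 1.04, and by 0.44 and 0.63 without TPCA-1+TNFα replicate 2; none of these passed.

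Socs2, the inhibitor of growth hormone signalling, collected 23 reads in all 16 libraries together, at most 6 in one, and was left out of the tests. It had 2, 4, 3 and 1 reads in TMP195+TNFα, 2, 1, 1 and 6 in TPCA-1+TNFα, 1, 0, 0 and 0 in TNFα, and 1, 0, 1 and 0 in DMSO. The groups summed to 10 reads in TMP195+TNFα, 10 in TPCA-1+TNFα, 1 in TNFα and 2 in DMSO, and their libraries overlapped in CPM. Scaled to library size, TMP195+TNFα had 10.9 times the TNFα level (exact 95% counting interval 1.54 to 471) and TPCA-1+TNFα 13.0 times (1.85 to 564); without TPCA-1+TNFα replicate 4, which held 6 of the 10 reads, the interval was 0.734 to 365. These intervals leave out the spread between libraries. With no filter on low counts edgeR tested Socs2 and did not call it, with an adjusted p of 0.238 for TMP195+TNFα and 0.0911 for TPCA-1+TNFα against TNFα (unadjusted p = 0.0158 and 0.0103). A floor of 3 counts corresponded to 0.0949 to 0.401 CPM per library, on library sizes without the TMM scaling used for the levels.

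Il10ra, the receptor chain that gives macrophages their response to interleukin-10, rose in TPCA-1+TNFα against TNFα alone, where Socs1 and Socs3 fell. It stood at 59.4, 53.7, 61.4 and 69.9 CPM in TMP195+TNFα, 80.4, 146, 93.0 and 121 in TPCA-1+TNFα, 59.5, 66.3, 67.4 and 86.9 in TNFα, and 79.8, 73.9, 75.5 and 109 in DMSO. The TPCA-1+TNFα libraries lay above all TMP195+TNFα libraries and overlapped TNFα and DMSO. Il10ra averaged 110.2 ± 29.5 CPM in TPCA-1+TNFα and 70.03 ± 11.8 in TNFα, a log2 fold change of 0.65 ± 0.18 (adjusted p = 0.0159). That call was lost without TPCA-1+TNFα replicate 2, the highest and shallowest library (0.48, adjusted p = 0.0643), without TPCA-1+TNFα replicate 4 (0.59, adjusted p = 0.0533) and without TNFα replicate 1 (0.57, adjusted p = 0.0611).

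Il10ra was lower in TMP195+TNFα than in TPCA-1+TNFα by -0.85 ± 0.18 on the log2 scale (adjusted p = 0.00198), and by -0.68 (adjusted p = 0.00732) without TPCA-1+TNFα replicate 2. Against DMSO, every TMP195+TNFα library was lower, and the difference of -0.47 ± 0.18 missed the threshold (adjusted p = 0.0571); blocked on replicate number, in a comparison where equal numbers deviated together, it was -0.46 ± 0.13 (adjusted p = 0.0137). TNFα against DMSO gave -0.27 ± 0.18 (adjusted p = 0.311), lower in all 4 pairs of equal number. TPCA-1+TNFα against DMSO gave 0.38 ± 0.18 (adjusted p = 0.116), called by limma (adjusted p = 0.0413), without DMSO replicate 4 (0.52, adjusted p = 0.0346) and without TPCA-1+TNFα replicate 1 (0.50, adjusted p = 0.0325); without TPCA-1+TNFα replicate 2 it was 0.21 (adjusted p = 0.389).

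Il10ra is also expressed by lymphocytes, and the summed level of the 9 T, B and NK cell markers was 14.8 to 18.5 CPM in TMP195+TNFα, 34.3 to 67.6 in TPCA-1+TNFα, 19.8 to 37.8 in TNFα and 46.6 to 85.1 in DMSO. Ighm and Cd4 made up most of that sum and Cd3e had 5 reads in all; their part in the Il10ra result was not tested. The 9 neutrophil markers summed to 35.6 to 61.7 CPM in TMP195+TNFα, 21.2 to 65.4 in TPCA-1+TNFα, 65.9 to 115 in TNFα and 17.1 to 23.2 in DMSO, highest in TNFα as Socs3 was. S100a8 led that list in TNFα, at 66.0 CPM, and stood at 1.56 in DMSO. In DMSO the list was led by Mmp8 at 17.7 CPM, which stood at 23.5 in TNFα, 15.2 in TPCA-1+TNFα and 12.1 in TMP195+TNFα. Ly6g had 0 reads. The part of these neutrophil markers in the Socs3 result was not tested. Pecam1, one of 5 stromal and endothelial markers, averaged 24.1 CPM in TPCA-1+TNFα and 5.60 in TNFα, while the other 4 were under 1 CPM. The 6 dendritic cell markers summed to 0.516 to 1.16 CPM in TMP195+TNFα, 0.880 to 2.03 in TPCA-1+TNFα, 0.398 to 0.756 in TNFα and 0.345 to 1.10 in DMSO. Zbtb46, the one of them with enough reads to be tested, rose to 1.01 ± 0.46 CPM in TPCA-1+TNFα, against 0.285 ± 0.166 in TNFα (log2 1.67 ± 0.46; adjusted p = 0.0178; 1.55 and adjusted p = 0.0414 without TPCA-1+TNFα replicate 2). Ccr7, too sparse to be tested at 10 reads or fewer per library, averaged 0.389 CPM in TPCA-1+TNFα and 0.0121 in TNFα. Dpp4 went the other way, at 0.0367 CPM in TPCA-1+TNFα and 0.0612 in TNFα. Xcr1 stood at 0.159 and 0.136 CPM in those groups and 0.323 in DMSO, and Flt3 at 0.0488 and 0.0245 CPM in the first 2. Siglech had 1 read in all. The part of these markers in the Il10ra result was not tested. The 6 erythroid and mast cell markers were all under 1 CPM in every group.

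The genes whose pattern lay nearest to each called gene were found by the root mean square difference of gene-centred log2 CPM over the 16 libraries, among 8569 genes of at least 5 CPM, as a description. For Socs3 they were Il1b, which encodes interleukin-1 beta (difference 0.37), and Osbpl3 (0.44). Il1b averaged 7.21 CPM in TMP195+TNFα, 2.10 in TPCA-1+TNFα, 15.3 in TNFα and 1.40 in DMSO. For Socs1 they were Dram1 (0.28) and the cyclic AMP phosphodiesterase gene Pde4b (0.29), at 63.5 and 51.0 CPM in TMP195+TNFα, 43.6 and 37.6 in TPCA-1+TNFα, 102 and 98.6 in TNFα, and 34.8 and 37.4 in DMSO. Tmem170b (0.13) and Hsd17b12 (0.14) lay nearest to Jak2, Epn1 (0.094) and Extl3 (0.10) to Il10ra, and Ubqln1 (0.076) and Pcbp1 (0.077) to Jak1. The spread of the genes themselves over the libraries was 1.37 for Socs3, 0.73 for Socs1, 0.40 for Jak2, 0.39 for Il10ra and 0.11 for Jak1 on the same scale.

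The rest of the pathway was followed in 6 lists, whose counts stand beside 23.4% of all tested genes called for TNFα against DMSO, 5.95% for TMP195+TNFα against TNFα and 19.4% for TPCA-1+TNFα against TNFα. The 9 list genes named below as changed in TPCA-1+TNFα against TNFα were all called without TPCA-1+TNFα replicate 2 as well. Socs4 to Socs7, the SOCS genes with long amino-terminal regions, had no call in the 3 main comparisons with edgeR. At an unadjusted p under 0.05 there was 1 of 4 for TNFα against DMSO, 0 for TMP195+TNFα against TNFα and 2 for TPCA-1+TNFα against TNFα; DESeq2 called 0, 0 and 1 and limma 1, 0 and 2. Their median log2 fold changes were -0.053, -0.047 and -0.17. Single omissions gave 1 call without DMSO replicate 4 for TNFα against DMSO, and 1 without TNFα replicate 4, TPCA-1+TNFα replicate 1 or TPCA-1+TNFα replicate 3 for TPCA-1+TNFα against TNFα; with the replicate block TNFα against DMSO had 1.

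Of 6 STAT genes, 1 fell in TPCA-1+TNFα against TNFα and none rose, also without TPCA-1+TNFα replicate 2; without TPCA-1+TNFα replicate 1, and by DESeq2, 2 fell. The gene called was Stat2, which acts in the type I interferon response and averaged 18.02 ± 1.56 CPM in TPCA-1+TNFα and 115 ± 15.1 in TNFα (log2 -2.67 ± 0.19; adjusted p = 3.52e-08). Its DMSO level was 122 ± 25.3 CPM, so TPCA-1+TNFα lay below DMSO too, by -2.76 ± 0.19. TNFα differed from DMSO by -0.089 ± 0.17, with no call. Stat3, the effector of interleukin-10 and gp130 cytokines, averaged 73.2 CPM in TMP195+TNFα, 76.3 in TPCA-1+TNFα, 82.7 in TNFα and 69.4 in DMSO. Stat5a rose with TNFα, to 28.6 ± 2.46 CPM against 22.4 ± 1.90 in DMSO (log2 0.36 ± 0.12; adjusted p = 0.0416), a call kept in 2 of the 8 fits that left out 1 library, those without DMSO replicate 4 and without TNFα replicate 2. No STAT gene was called by edgeR in TMP195+TNFα against TNFα; 1 had an unadjusted p under 0.05, and DESeq2 and limma each called 1. The median log2 fold changes of the list were -0.019, -0.10 and -0.12 for TNFα against DMSO, TMP195+TNFα against TNFα and TPCA-1+TNFα against TNFα.

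Of 33 other receptor chains that couple to Janus kinases, 25 were tested. With TNFα, 6 rose and 5 fell; with TMP195 before TNFα, 3 rose and 2 fell against TNFα alone; with TPCA-1, 1 rose and 7 fell, and 1 and 6 without TPCA-1+TNFα replicate 2. The calls were 44% of the tested chains with TNFα, 20% with TMP195 and 32% with TPCA-1. With the replicate block, TNFα against DMSO had 10 higher and 6 lower, and TMP195+TNFα against TNFα 5 higher and 4 lower. Csf2rb, the shared beta chain of the GM-CSF, interleukin-3 and interleukin-5 receptors, averaged 143 ± 17.5 CPM in TMP195+TNFα, 57.7 ± 13.3 in TPCA-1+TNFα, 108 ± 7.44 in TNFα and 47.5 ± 6.78 in DMSO. It rose with TNFα (log2 1.18 ± 0.15; adjusted p = 1.62e-05) and fell with TPCA-1 against TNFα alone (-0.90 ± 0.15; adjusted p = 0.00041). Csf2rb2, the mouse interleukin-3-specific beta chain, rose with TMP195 against TNFα alone, to 115 ± 10.2 CPM against 61.2 ± 5.33 (0.91 ± 0.16; adjusted p = 0.00261); the pair are close copies, so reads shared between them are uncertain. Il6ra, the interleukin-6 receptor chain, fell with TMP195 to 17.1 ± 1.65 CPM against 27.5 ± 3.51 in TNFα (-0.69 ± 0.13; adjusted p = 0.00383). Il15ra fell with TPCA-1 to 1.91 ± 0.27 CPM against 6.10 ± 0.80 in TNFα (-1.66 ± 0.19; adjusted p = 1.04e-05), and averaged 2.83 ± 0.44 in DMSO. Il12rb2 fell with TNFα to 6.41 ± 2.39 CPM against 18.2 ± 2.24 in DMSO (-1.50 ± 0.23; adjusted p = 0.000105). The median log2 fold changes over the 25 chains were 0.21, 0.068 and -0.16 for the 3 comparisons in the order given.

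Of 26 ligands of these receptors, 8 had enough reads to be tested; 25% of them were called with TNFα, 12.5% with TMP195 and 25% with TPCA-1. The granulocyte factor Csf3 and the gp130 ligand Il6, 2 of the 8, rose with TNFα and none fell. Csf3 averaged 0.294 CPM in TMP195+TNFα and 0.0371 in TPCA-1+TNFα, so it passed the read filter mainly through the TNFα libraries, where it was high. Its calls against TNFα, and the shares that count it, are not independent of that filter. Csf3 averaged 0.797 ± 0.266 CPM in TNFα and had 0 reads in DMSO, at least 5.35-fold higher against a floor of 3 counts per library (adjusted p = 0.000133), and Il6 averaged 1.42 ± 0.45 CPM in TNFα and 0.112 ± 0.067 in DMSO (log2 3.60 ± 0.55; adjusted p = 9.18e-05). The Il6 level in DMSO lay under the mean floor there, 0.149 CPM, so the size of its rise rests on few reads. The gp130 ligand Osm rose with TMP195 to 6.69 ± 1.41 CPM, against 3.43 ± 0.37 in TNFα (0.96 ± 0.18; adjusted p = 0.00393). In TPCA-1+TNFα, Il27 fell to 0.0826 ± 0.0700 CPM against 0.626 ± 0.204 in TNFα (-2.97 ± 0.52; adjusted p = 0.000603). That level lay under the mean floor of 3 counts in TPCA-1+TNFα, 0.212 CPM, so the size of the fall rests on few reads. Csf3 fell there too, with 3 reads against 75 in TNFα, a ratio of 0.052 with a 95% counting interval of 0.0105 to 0.158 (adjusted p = 0.00161). Il10 itself, the ligand of Il10ra, averaged 30.9 ± 6.54 CPM in TMP195+TNFα, 49.9 ± 26.1 in TPCA-1+TNFα, 48.8 ± 3.61 in TNFα and 30.5 ± 1.36 in DMSO. It had no call by edgeR in the 3 main comparisons. The differences were 0.68 ± 0.26 for TNFα against DMSO (adjusted p = 0.0741) and -0.66 ± 0.26 for TMP195+TNFα against TNFα (adjusted p = 0.163). For TPCA-1+TNFα against TNFα the difference was 0.046 ± 0.26 (adjusted p = 0.920). Against DMSO, Il10 was called higher in TPCA-1+TNFα (0.72 ± 0.26, adjusted p = 0.0467), with overlapping libraries. That value is not given without TPCA-1+TNFα replicate 2. With the replicate block, 5 ligands rose with TNFα, and 1 rose and 3 fell with TMP195 against TNFα alone. For TMP195+TNFα against TNFα there were 2 calls without TMP195+TNFα replicate 1, 2 or 3 or TNFα replicate 2, and 3 without TMP195+TNFα replicate 4. There were 4 calls for TNFα against DMSO without DMSO replicate 2, and for TPCA-1+TNFα against TNFα 4 without TPCA-1+TNFα replicate 1 and 3 without TPCA-1+TNFα replicate 2. Medians were 0.70, -0.27 and 0.12.

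Of 19 other inhibitors of the pathway, all tested, 2 rose and 2 fell with TNFα, 1 fell with TMP195 against TNFα alone, and 1 rose and 5 fell with TPCA-1 against TNFα alone (1 and 4 without TPCA-1+TNFα replicate 2). The calls were 21.1%, 5.26% and 31.6% of the list, the first pair near the shares of all tested genes. Ptpn1, the phosphatase that dephosphorylates JAK2 and TYK2, rose with TNFα to 219 ± 30.1 CPM against 89.1 ± 12.7 in DMSO (log2 1.30 ± 0.14; adjusted p = 3.38e-06). Its relative Ptpn2 rose to 40.8 ± 4.69 CPM against 25.7 ± 1.70 (0.66 ± 0.12; adjusted p = 0.000528). Usp18, an inhibitor of type I interferon receptor signalling, fell with TPCA-1 to 6.26 ± 1.59 CPM against 143 ± 20.4 in TNFα (-4.48 ± 0.23; adjusted p = 9.29e-10), and the ubiquitin ligase Cbl fell to 181 ± 35.7 CPM against 294 ± 8.50 (-0.70 ± 0.12; adjusted p = 0.000442). Ptpn6, the phosphatase SHP-1, fell with TMP195 to 175 ± 31.1 CPM against 266 ± 55.5 in TNFα (-0.61 ± 0.17; adjusted p = 0.0491), a call kept in 2 of 8 fits that left out 1 library, those without TMP195+TNFα replicate 4 and without TNFα replicate 2. With the replicate block, 5 rose and 4 fell with TNFα, and 2 fell with TMP195. Without TNFα replicate 4 there were 8 calls for TNFα against DMSO, and for TPCA-1+TNFα against TNFα there were 3 without TNFα replicate 1, TNFα replicate 3 or TPCA-1+TNFα replicate 4 and 2 without TNFα replicate 2. Medians were 0.071, -0.20 and -0.19.

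Of 23 genes known as targets of STAT3 or STAT5, many of them also NF-κB targets, 10 rose and 4 fell with TNFα, 3 fell with TMP195 and none rose, and 4 rose and 4 fell with TPCA-1, the last count unchanged without TPCA-1+TNFα replicate 2. The calls were 60.9%, 13% and 34.8% of the list. Lcn2, the acute-phase protein lipocalin 2, averaged 10.6 ± 2.97 CPM in TMP195+TNFα, 4.79 ± 1.51 in TPCA-1+TNFα, 20.3 ± 5.92 in TNFα and 1.44 ± 0.27 in DMSO. It rose with TNFα (log2 3.81 ± 0.30; adjusted p = 8.46e-08) and fell with TPCA-1 (-2.08 ± 0.27; adjusted p = 2.96e-05) and with TMP195 (-0.94 ± 0.25; adjusted p = 0.0334). Saa3, serum amyloid A3, averaged 314 ± 173 CPM in TMP195+TNFα, 25.4 ± 15.9 in TPCA-1+TNFα, 1283 ± 657 in TNFα and 13.1 ± 3.97 in DMSO, and fell with TMP195 (-2.03 ± 0.49; adjusted p = 0.0192) and with TPCA-1 (-5.64 ± 0.58; adjusted p = 2.94e-06). Ccnd1, cyclin D1, fell with TNFα to 31.4 ± 7.70 CPM against 206 ± 54.6 in DMSO (-2.71 ± 0.23; adjusted p = 1.82e-07). The TMP195 calls were lost without 1 library in 6 of 8 such fits for Lcn2 and in 3 for Saa3. Among the single omissions, the list had 1 call for TMP195+TNFα against TNFα without TMP195+TNFα replicate 2 or 3 or TNFα replicate 1 or 3 and 0 without TNFα replicate 4, and for TNFα against DMSO it had 8 without DMSO replicate 3 and 9 without TNFα replicate 4. With the replicate block, TNFα against DMSO had 12 higher and 4 lower, and TMP195+TNFα against TNFα 4 higher and 5 lower. Medians were 0.42, 0.057 and 0.15.

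**Figure D5:**
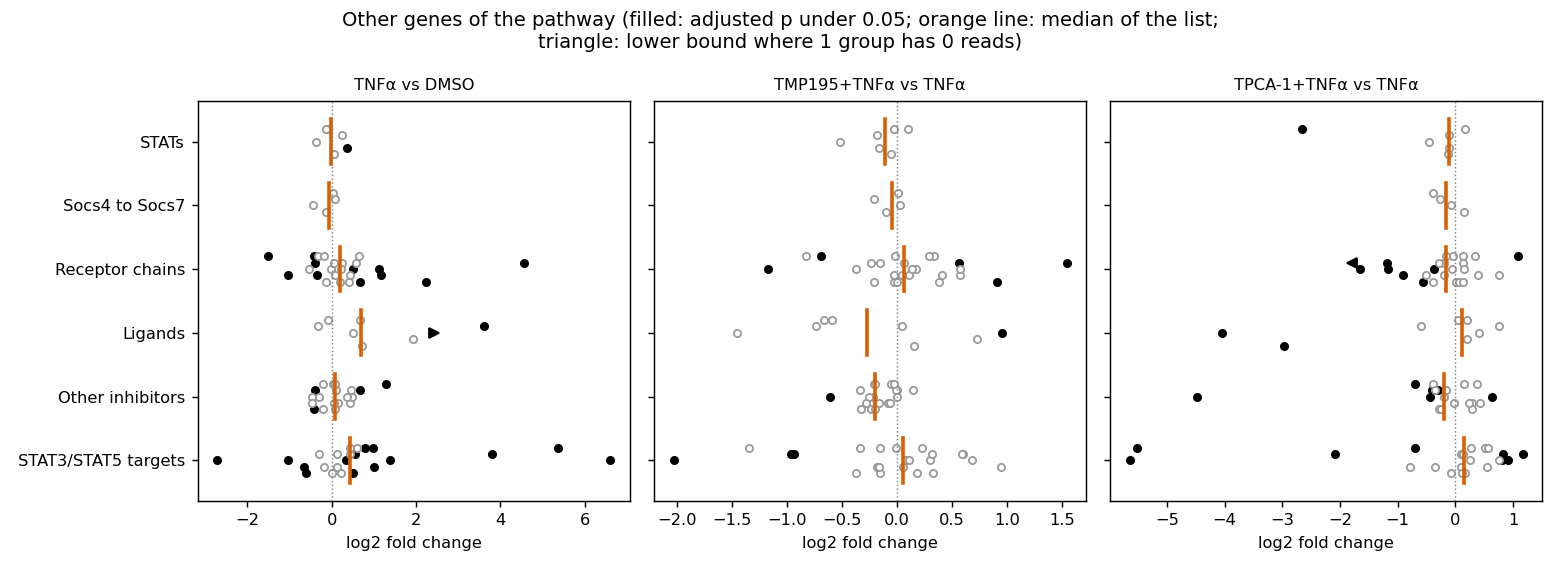
Log2 fold change of the tested genes of 6 lists in 3 comparisons; each point is a gene, filled where the adjusted p is under 0.05, and the orange line is the median of the list. Triangles are lower bounds where 1 group had 0 reads, for Csf3 in TNFα against DMSO and Il23r in TPCA-1+TNFα against TNFα. Stat2 stands at -2.67 in TPCA-1+TNFα against TNFα, apart from the other 5 STAT genes.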

How the data were processed

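RNA-seq counts of 16 libraries in 4 groups were used. The authors deposited whole-number counts of uniquely mapped reads per gene, without normalization; STAR 2.6.1d and the builds mm10 and GRCm38 are named in the submitters' processing notes, and the annotation release is not given in the sources used here. Reads on the gene's strand were used (the file's column whose total exceeded the other strand's, which held 3.19% to 3.72% of stranded reads). Each file opens with 4 lines for unmapped, multimapped, unassigned and ambiguous reads; these held 20.95% to 53.4% of the reads and stayed out of library sizes and tests. Of 54838 identifiers, 54809 were found in GENCODE M21, the source of symbols, positions and exon lengths.

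Counts were fitted with edgeR 4.0.16 under R 4.3.3 (quasi-likelihood test, two-sided; TMM; filterByExpr, which kept 12612 genes), 16 libraries in 1 model, 6 contrasts, Benjamini-Hochberg adjustment over all tested genes, threshold 0.05. CPM use TMM-scaled library sizes; SE are the fold change over the square root of F. Alternatives were DESeq2 1.42.0, limma 3.58.1 voom with quality weights, no filter, counts regardless of strand, a replicate block, only the 2 groups compared, and leaving out each library. The code was tested on simulated data. Replicates differed by more than sampling noise (chi-square per gene 12.9 to 73.4 over 24 pairs). Reads carry no molecular identifiers, so floors and intervals on counts reflect counting alone.

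Equal replicate numbers deviated together (correlation of deviations from group means over genes) at 0.33 to 0.68 for TNFα against DMSO, 0.37 to 0.67 for TMP195+TNFα against TNFα and 0.27 to 0.65 for TMP195+TNFα against DMSO, past the limit of 0.1 in every pair; there the blocked value is given where it changes a call of the 9 genes or moves a list's count in either direction by over 1.5-fold. The pairing comes from these correlations, not from the labels. Correlations between unequal numbers are not given beside them, so they cannot show that equal numbers match best. Replicate 4 stood apart in TNFα, with a chi-square per gene of 46.4 to 64.4 against 14.8 to 23.2 among replicates 1 to 3. The same held in DMSO (38.5 to 52.6 against 12.9 to 21.5) and TMP195+TNFα (26.0 to 59.0 against 15.1 to 17.7). It did not hold in TPCA-1+TNFα (34.3 to 40.1 against 36.3 to 73.4). The block was fitted over all 16 libraries, TPCA-1+TNFα included. Blocked calls thus rest on a pairing picked from these same data.

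The 9 genes and the lists were chosen with earlier results of these data known, so no list count is independent evidence. Named genes are the 9, from each pathway list up to 2 with the smallest adjusted p among calls in the 3 main comparisons, and the 2 nearest genes in pattern to each called gene; Il10, Stat3 and cell type markers are named as context. Some genes of these lists are not reported here.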

Additional observations from a re-analysis of the deposited data

Results flagged for a closer look

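In 36 combinations of gene and group, each with 4 libraries, 1 library was looked for whose gap to its nearest neighbour exceeded Dixon's 95% limit as a share of the group's range; chance flags about 1 in 20 such groups. It was met 4 times. Socs3 stood at 10.3 CPM (208 reads) in TPCA-1+TNFα replicate 3, against 2.48 to 3.76 in the other TPCA-1+TNFα libraries. Socs3 in DMSO replicate 4 stood at 6.66 CPM (128 reads), against 3.40 to 3.68 in the other DMSO libraries. Il10ra in DMSO replicate 4 stood at 109 CPM, against 73.9 to 79.8 in the others. Socs2 in TNFα replicate 1 stood at 0.0568 CPM, which is 1 read, against 0 in the others.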

How the results depend on the processing

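Of the 16 called changes of the 9 genes, 11 kept their call under all 14 alternatives run for each, and 5 lost it in at least 1, those of Socs1 in TMP195+TNFα against TNFα and against DMSO, of Il10ra in TPCA-1+TNFα against TNFα, and of Jak1 in TMP195+TNFα against TPCA-1+TNFα and against DMSO. No called change reversed its direction. For TMP195+TNFα against TNFα, 1 of the genes was called, against 3 with limma (Jak2, Socs1, Socs3), 2 with no filter and 2 with only those groups in the fit (Socs1, Socs3), and 0 to 1 when single libraries were left out. For TMP195+TNFα against DMSO, 4 were called, against 5 with DESeq2 (Il10ra added), 6 with limma (Il10ra and Cish added) and 2 to 5 with single libraries left out. For TPCA-1+TNFα against TNFα, 1 was higher and 3 were lower, against 1 and 4 with DESeq2 and 0 and 3 without TPCA-1+TNFα replicate 2. For TPCA-1+TNFα against DMSO, 0 were called, against 1 with limma (Il10ra) and 0 to 2 with single libraries left out. The causes were not tested.

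Blocked on the replicate number (replicate block), 3 genes were called for TMP195+TNFα against TNFα (Jak2, Socs1, Socs3) and Il10ra was added for TMP195+TNFα against DMSO. The block changed no other call of the 9 genes in the comparisons past the correlation limit. For TPCA-1+TNFα against TNFα, TMP195+TNFα against TPCA-1+TNFα and TPCA-1+TNFα against DMSO the lowest correlation between libraries of equal number was -0.043, -0.0066 and 0.020, so the numbers do not pair; there the block gave 4, 4 and 1 calls (the last Il10ra). Over all genes the block called 1699 for TMP195+TNFα against TNFα, where 750 were called without it.

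Directions reversed for uncalled differences alone. The log2 difference of Jak3 in TMP195+TNFα against TNFα was -0.024 with limma, -0.010 with the replicate block and -0.24 to 0.23 with single libraries left out. That of Cish in TMP195+TNFα against TPCA-1+TNFα was -0.0034 with DESeq2 and -0.22 to 0.46 with single libraries left out. Single omissions gave -0.011 to 0.26 for Tyk2 in TNFα against DMSO, -0.066 to 0.20 for Tyk2 in TMP195+TNFα against TNFα, -0.31 to 0.030 for Tyk2 and -0.18 to 0.29 for Jak3 in TMP195+TNFα against TPCA-1+TNFα, -0.18 to 0.089 for Jak3 in TPCA-1+TNFα against TNFα, and -0.14 to 0.042 for Jak2 and -0.50 to 0.50 for Socs3 in TPCA-1+TNFα against DMSO. Socs2 and Cish had the fewest reads of the genes followed, 23 and 165 over all libraries together. The part of sequencing depth in these reversals was not tested.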

Other observations

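Outside the named-gene rule, and chosen after their values were seen, several receptor chains moved with the inhibitors. In TMP195+TNFα against TNFα alone, Il7r, the interleukin-7 receptor chain, rose to 255 ± 46.9 CPM against 87.3 ± 29.6 (log2 1.54 ± 0.31; adjusted p = 0.00673). Il6st, which encodes gp130, rose to 52.8 ± 2.68 CPM against 35.7 ± 3.58 (0.56 ± 0.11; adjusted p = 0.0048), while Lifr, its partner in the LIF receptor, fell to 2.72 ± 0.16 CPM against 6.16 ± 1.18 (-1.17 ± 0.26; adjusted p = 0.0123). Il6st stood at 47.1 ± 4.33 CPM in DMSO, 0.17 ± 0.11 below TMP195+TNFα with no call. Lifr was as low in TPCA-1+TNFα, at 2.58 ± 1.32 CPM, and the inhibitor groups differed by -0.0081 ± 0.27. In TPCA-1+TNFα against TNFα alone, Il2ra, the interleukin-2 receptor alpha chain, rose to 38.2 ± 6.53 CPM against 17.9 ± 6.19 (1.09 ± 0.28; adjusted p = 0.0109), and Csf3r, the G-CSF receptor, fell to 35.3 ± 4.46 CPM against 80.3 ± 23.6 (-1.19 ± 0.24; adjusted p = 0.00207). Socs6 was lower in TPCA-1+TNFα than in DMSO, at 26.4 ± 5.48 against 37.8 ± 6.27 CPM (-0.51 ± 0.16; adjusted p = 0.0242). Without TPCA-1+TNFα replicate 2, Il2ra (1.04; adjusted p = 0.0281) and Csf3r (-1.22; adjusted p = 0.00579) were still called, and Socs6 was not (-0.47; adjusted p = 0.0614).

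Of the 8 tested genes, replicate 4 held the highest level for 5 in TMP195+TNFα, 5 in TNFα and 6 in DMSO. In TPCA-1+TNFα replicate 2, the shallowest library, was highest for 4 (Jak3, Tyk2, Cish and Il10ra).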
